A study of Homo sapiens with 4 samples.

Results

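The plasminogen activators, their receptor and 6 serpins were examined in SUM159 cells, a triple-negative, metaplastic breast cancer (MpBC) cell line, in which NOS2, the gene of inducible nitric oxide synthase (iNOS), had been targeted. The 9 genes were chosen by name, as the rows whose Ensembl identifier carries the symbol PLAU, PLAT, PLAUR, SERPINE2, SERPINB2, SERPINB5, SERPINB7, SERPINB8 or SERPINA1 in GENCODE release 29. They are 9 of the 57500 genes in the files, and 8 of them were among the 22511 genes that passed an expression filter. The exception was SERPINB2. The Parental group held 1 library of untargeted SUM159 cells, and the NOS2KO group held 1 library from each of 3 clones, numbered 1, 5 and 6. The clones came from cells that received a NOS2 double nickase plasmid, were selected with puromycin, and were picked by iNOS immunoblot and by a colorimetric nitrite and nitrate assay. All cells grew in DMEM with 10% FBS and antibiotic-antimycotic, and no other agent is named. Each clone is a single clonal line with 1 library, so a feature of 1 clone and an effect of losing NOS2 cannot be told apart within a clone, and plasmid, selection and cloning separate all clones from the Parental cells.

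Plasminogen activators are serine proteases that cut the inactive plasminogen to plasmin, a protease that dissolves fibrin and degrades extracellular matrix. The urokinase-type activator (uPA, from PLAU) is held at the cell surface by its receptor (uPAR, from PLAUR). The tissue-type activator (tPA, from PLAT) cuts plasminogen mainly where both are bound to fibrin. Serpins are inhibitors that trap a protease in a covalent complex, and among them PAI-2 (SERPINB2) and protease nexin 1 (SERPINE2) act on the plasminogen activators.

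The sequence in front of the transcription start is shown for 4 of the genes: the activator and receptor that work together at the cell surface (PLAU and PLAUR), and SERPINB5 and SERPINB8, which lie in the same cluster of chromosome 18 and had different patterns across the clones. The windows are RefSeq sequence on GRCh38.p14, run from 250 bases before an annotated start to 50 bases after it, and are written on the strand of the gene. Capitals mark matches to TGANTCA, the letters of the AP-1 site of TRE type, searched on both strands. PLAU lies at chr10:73910882-73911181 on the + strand, PLAUR at chr19:43670120-43670419 on the - strand, SERPINB5 at chr18:63476708-63477007 on the + strand, and SERPINB8 at chr18:63969831-63970130 on the + strand.
PLAU: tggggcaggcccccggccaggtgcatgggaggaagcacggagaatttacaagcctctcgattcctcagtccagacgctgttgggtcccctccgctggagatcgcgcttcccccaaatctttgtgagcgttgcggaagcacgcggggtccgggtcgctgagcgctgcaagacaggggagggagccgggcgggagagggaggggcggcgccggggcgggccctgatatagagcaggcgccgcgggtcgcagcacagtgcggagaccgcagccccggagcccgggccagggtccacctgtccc
PLAUR: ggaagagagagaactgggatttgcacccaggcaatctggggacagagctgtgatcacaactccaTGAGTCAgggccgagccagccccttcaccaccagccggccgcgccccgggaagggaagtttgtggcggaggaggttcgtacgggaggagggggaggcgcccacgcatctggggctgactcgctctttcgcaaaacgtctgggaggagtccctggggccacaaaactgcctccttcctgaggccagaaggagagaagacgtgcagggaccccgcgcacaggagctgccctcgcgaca
SERPINB5: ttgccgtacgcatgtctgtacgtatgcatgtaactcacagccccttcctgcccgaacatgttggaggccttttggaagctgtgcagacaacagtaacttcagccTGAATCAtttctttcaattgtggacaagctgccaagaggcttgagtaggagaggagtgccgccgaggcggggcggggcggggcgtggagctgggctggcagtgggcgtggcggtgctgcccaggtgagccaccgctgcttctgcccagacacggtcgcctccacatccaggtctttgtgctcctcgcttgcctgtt
SERPINB8: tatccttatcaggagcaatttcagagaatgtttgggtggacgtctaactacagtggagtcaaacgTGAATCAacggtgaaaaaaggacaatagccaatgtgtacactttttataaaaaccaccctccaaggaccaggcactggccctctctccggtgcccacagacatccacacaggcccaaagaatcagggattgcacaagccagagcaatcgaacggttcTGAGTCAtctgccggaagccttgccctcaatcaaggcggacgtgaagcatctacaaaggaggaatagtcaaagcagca

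The PLAU window held no match. PLAUR had TGAGTCA with its first base at -186 from the start, SERPINB5 had TGAATCA at -146, and SERPINB8 had TGAATCA at -185 and TGAGTCA at -28. In all, 8 of the 9 genes had an entry, with 13 windows, and 6 windows of 5 genes (PLAUR, SERPINB2, SERPINB5, SERPINB7 and SERPINB8) held the letters. Over all RefSeq windows of the same length, 2707 of 35116 (7.71%) held TGANTCA, in 2558 of 27305 genes (9.37%). The CRE-type letters TGACGTCA, which do not match TGANTCA, were in 1.85% of all windows and in none of these 13. A match is a description of the letters only, and binding was not measured.

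Library depth, as the sum of counts over genes, ran from 90467395 (Parental) to 122171287 (clone 1). NOS2 itself was counted 2, 3, 18 and 1 times in the Parental cells, clone 1, clone 5 and clone 6. The mRNA was too scarce to check the labels. Because its highest count came from the library labelled clone 5, that library is called the labelled clone 5. The mesenchymal markers VIM and CD44 were at 1655 to 3855 and at 454 to 827 CPM (counts per 1000000, relative to the TMM-scaled library size), higher in every clone, and ZEB1 was at 83.7 CPM in the Parental cells and lower, at 39.5 to 57.8 CPM, in the clones. Of the epithelial markers, EPCAM and CDH1 were under 1 CPM, whereas KRT8 (254 CPM, and 416 to 807 CPM in the clones) and KRT18 (303 CPM, and 326 to 467 CPM) were abundant. Of the receptor genes, ESR1 and PGR were under 1 CPM and ERBB2 was at 48.3 CPM in the Parental cells and at 55.6 to 106 CPM in the clones. PTPRC, a leukocyte gene, was at 4.45 CPM in the Parental cells and at 68.4, 105 and 41.7 CPM in clone 1, the labelled clone 5 and clone 6. The 3 genes for other cell types (PTPRC, PECAM1 and ALB) summed to 20.6 CPM in the Parental cells and to 50.4 to 112 CPM in the clones, through PTPRC alone, since PECAM1 was at 16.1 CPM and at 7.06 to 13.9 CPM. Of 7 further leukocyte genes, a list added after values were seen, the sum was 13.6 CPM in the Parental cells and 2.76 to 11.8 CPM in the clones. Most of it was CD14, at 12.8 CPM in the Parental cells and 2.29, 4.28 and 11.3 CPM in the clones. The directions were mixed: CD14 and ITGAM were lower in every clone, CD53 and LYZ were higher in every clone at low counts, and SPI1 overlapped. MS4A1 had 2 counts or fewer in every library and CD3E 8 or fewer. ALB, a gene of hepatocytes, had 1 to 3 counts. The part of any other cell type in the values below was not tested, and in bulk samples fewer cells of a type and less RNA per cell cannot be told apart.

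Relative to length, the Parental cells held most PLAU mRNA. In RPKM (reads per kilobase, here the CPM divided by the exon length in the files), the Parental order was PLAU at 49.7, PLAT at 10.8, PLAUR at 9.35, SERPINE2 at 8.56, SERPINB8 at 4.74, SERPINA1 at 2.5, SERPINB5 at 2.05 and SERPINB7 at 0.0420, with SERPINB2 at 0 counts. This library has no replicate, so neighbours in that order cannot be set against a spread. In the clones, the order of mean RPKM was PLAU at 42.9 ± 19.4, PLAT at 35.7 ± 23.2, PLAUR at 10.6 ± 0.181, SERPINE2 at 8.52 ± 3.91, SERPINA1 at 7.23 ± 8.27, SERPINB5 at 2.21 ± 0.986 and SERPINB8 at 1.84 ± 1.09 (SD, n = 3 each). PLAU and PLAT overlapped in the clones, as did PLAUR, SERPINE2 and SERPINA1, and SERPINB5 and SERPINB8, while PLAUR kept a narrow range. SERPINA1, from 1.62 RPKM in the labelled clone 5 to 16.7 RPKM in clone 1, also overlapped SERPINB5 and SERPINB8. The length of all exons of a gene is not that of its expressed transcripts, which limits these comparisons between genes. In all 4 libraries, 6 genes were above 1 RPKM, namely PLAU, PLAT, PLAUR, SERPINE2, SERPINB5 and SERPINA1.

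**Figure D1:**
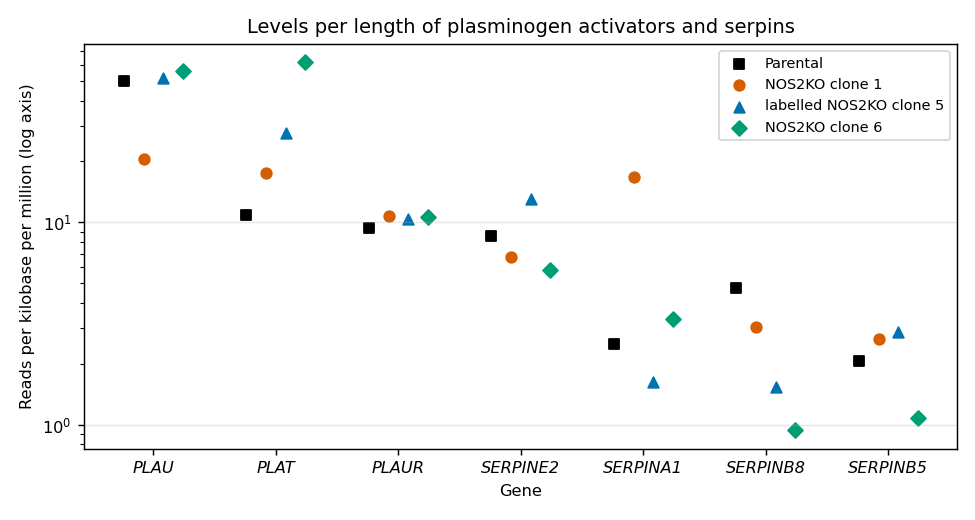
Levels of 7 of the 9 genes (SERPINB2 and SERPINB7, with 10 counts or fewer in every library, are left out) in RPKM on a log axis, with 1 point for each library. PLAU leads in the Parental cells, PLAT passes PLAU per length only in clone 6, PLAUR is nearly level across libraries, and SERPINA1 stands high in clone 1.

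None of the 8 tested genes passed an adjusted p under 0.05 when the 3 clones were compared with the Parental cells by the quasi-likelihood test of edgeR, adjusted after Benjamini and Hochberg over all tested genes. Among all tested genes, 0 (0%) passed as higher and 1 (0.00444%) as lower in the clones. By an unadjusted p under 0.05 with a log2 fold change past 1 in either direction, again 0 of the 8 passed, beside 9.58% of all tested genes (4.24% higher and 5.34% lower). DESeq2's Wald test on the same genes called 0 of the 8 at an adjusted p under 0.05. By the unadjusted criterion it called 1, PLAT (adjusted p = 0.210 by DESeq2), beside 1591 higher and 1144 lower among all 22511 tested genes. For SERPINB7, DESeq2 gave no adjusted p. The Parental cells have 1 library, so the replicate spread comes from the clones alone. For each gene, edgeR moderates that spread toward a trend over all tested genes. The p-values measure only spread between these libraries. With 1 library against 3, the smallest p of an exact permutation test is 0.25.

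By level alone, 2 of the 8 genes (PLAT and PLAUR) were higher in all 3 clones than in the Parental cells, as were 28.6% of all tested genes, and 2 (SERPINB7 and SERPINB8) were lower in all 3, as were 30.5%. In the other 4 the Parental value lay within the range of the clones. None was higher or lower in every clone by over 1 on the log2 scale, beside 6.07% and 6.29% of all tested genes. SERPINB7 passed the expression filter through the Parental library alone, so its place among the lower genes is no support for a difference. The counts above are near their backgrounds, and the 3 comparisons share the Parental cells. The plot of each clone against the Parental cells shows these ratios with intervals for counting error only.

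**Figure D2:**
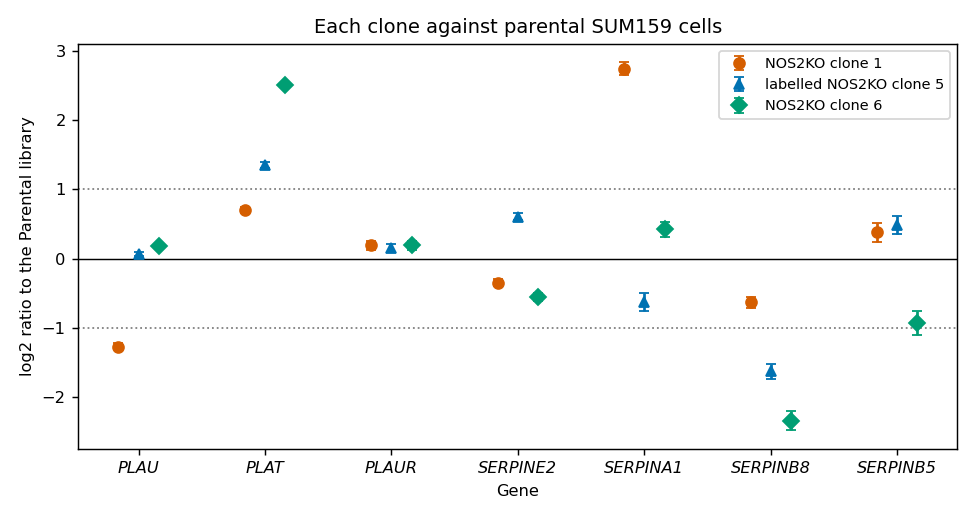
Log2 ratio of each NOS2KO clone to the Parental cells, from TMM-scaled CPM, for 7 genes, with exact 95% intervals as bars and dotted lines at 1 and -1. PLAT lies above 0 and SERPINB8 below 0 in every clone, while PLAU and SERPINA1 differ mainly in clone 1.

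Taking the clones singly, a log2 ratio past 1 was found in different genes. In clone 1, SERPINA1 was above 1 (1 gene, beside 16.0% of all tested genes) and PLAU below -1 (1 gene, beside 19.2%), so 2 of 8 were past 1 in either direction beside 35.1%. In the labelled clone 5, PLAT was above 1 (1 gene, beside 20.4%), and SERPINB7 and SERPINB8 were below -1 (2 genes, beside 14.3%), with 34.7% for either direction. In clone 6, PLAT was again above 1 (1 gene, beside 18.3%) and SERPINB7 and SERPINB8 below -1 (2 genes, beside 15.6%, and 33.9% for either direction). SERPINB7, with 0 counts in both, is included through its bound, though it passed the expression filter through the Parental library alone.

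PLAU (ENSG00000122861, chr10:73909177-73917497 of GRCh38, + strand) encodes urokinase. It had 13259 counts in the Parental cells, 6994 in clone 1, 16295 in the labelled clone 5 and 16344 in clone 6, which is 147, 61.0, 153 and 166 CPM. Clone 1 stood alone at a low level, and the Parental value lay within the range of the clones. Clone 1 was 2.405-fold lower than the Parental cells (log2 ratio -1.27, exact 95% interval -1.31 to -1.22), whereas the ratios of the others were 0.06 (0.03 to 0.09) and 0.18 (0.14 to 0.21). The clones averaged 126.5 ± 57.1 CPM (SD, n = 3), with a log2 fold change of -0.21 ± 0.62 (SE) and an adjusted p of 0.911 by edgeR's quasi-likelihood test. Without clone 1 the fold change was 0.12. C10orf55, a gene on the opposite strand, shares 916 exon bases with PLAU and had 181, 525, 416 and 522 counts. The strand setting of the counting is not given in the sources used here, and without strand the reads of both genes cannot be told apart where they overlap.

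PLAT (ENSG00000104368, chr8:42175233-42207724, - strand) encodes the tissue-type activator. Its counts were 6479 in the Parental cells, 13377 in clone 1, 19499 in the labelled clone 5 and 40306 in clone 6 (71.7, 117, 183 and 409 CPM). All 3 clones were above the Parental cells, and clone 6 was the highest. The differences were 1.63-fold in clone 1 (log2 ratio 0.70, 0.66 to 0.75), 2.55-fold in the labelled clone 5 (1.35, 1.31 to 1.39) and 5.70-fold in clone 6 (2.51, 2.47 to 2.55). The clones differed by up to 3.50-fold among themselves, more than the differences of clone 1 and of the labelled clone 5 from the Parental cells. With 236 ± 153 CPM in the clones (SD, n = 3), the log2 fold change was 1.72 ± 0.74 (SE), and the adjusted p was 0.498 by edgeR's quasi-likelihood test. Leaving out 1 clone in turn moved the fold change between 1.07 (without clone 6) and 2.05 (without clone 1). Without clone 1 it passed the unadjusted criterion (adjusted p = 0.196 by edgeR). That fit called 1791 genes higher by the criterion, PLAT among them.

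Within a library, the balance of the activators also differed. Per length, PLAT mRNA was 0.218 of PLAU mRNA in the Parental cells (exact 95% interval 0.211 to 0.224), 0.853 in clone 1 (0.828 to 0.878), 0.533 in the labelled clone 5 (0.522 to 0.545) and 1.10 in clone 6 (1.08 to 1.12). Every clone had a higher ratio than the Parental cells, and per length only in clone 6 was PLAT the more abundant. That ranking rests on the exon lengths used, 6618 bases for PLAT and 2950 for PLAU, which the intervals do not cover. In CPM, without length, PLAT was above PLAU in clone 1 (117 against 61.0), the labelled clone 5 (183 against 153) and clone 6 (409 against 166). In the Parental cells it was below PLAU (71.7 against 147). In clone 1 the ratio reflects a lower PLAU level as well as a higher PLAT level.

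PLAUR (ENSG00000011422, chr19:43646095-43670547, - strand) encodes the urokinase receptor, whose promoter window with 1 AP-1 match is printed above. It had 3767 counts in the Parental cells, 5469 in clone 1, 4921 in the labelled clone 5 and 4671 in clone 6, or 41.7, 47.7, 46.2 and 47.4 CPM. The clones lay close together, all slightly above the Parental cells, and differed among themselves by at most 1.03-fold. Their log2 ratios were 0.19 (0.13 to 0.25), 0.15 (0.09 to 0.21) and 0.19 (0.12 to 0.25) in the same order. The clones averaged 47.1 ± 0.804 CPM (SD, n = 3), the log2 fold change was 0.18 ± 0.25 (SE), and the adjusted p was 0.808 by edgeR's quasi-likelihood test. The median log2 fold change of all tested genes was 0.10. Per length, PLAUR was 0.188 of PLAU in the Parental cells, 0.518 in clone 1, 0.20 in the labelled clone 5 and 0.189 in clone 6, so clone 1, with its low PLAU level, stood apart.

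SERPINE2 (ENSG00000135919, chr2:223975112-224039319, - strand) encodes protease nexin 1, which inhibits thrombin and the plasminogen activators. Its counts were 6881, 6867, 12334 and 5106 in the Parental cells, clone 1, the labelled clone 5 and clone 6 (76.1, 59.9, 116 and 51.8 CPM). The labelled clone 5 was above the Parental cells, and clones 1 and 6 were below them. The log2 ratios were -0.35 (-0.39 to -0.30), 0.60 (0.56 to 0.65) and -0.56 (-0.61 to -0.50). At 75.8 ± 34.8 CPM in the clones (SD, n = 3), the log2 fold change was -0.01 ± 0.54 (SE, adjusted p = 0.997 by edgeR), and its sign turned with the scaling of the libraries.

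SERPINB2 (ENSG00000197632, chr18:63871692-63903890, + strand), the gene of PAI-2, had 0 counts in the Parental cells, 2 in clone 1 and 0 in the others. All were under a floor of 3 counts, which is 0.0332, 0.0262, 0.0281 and 0.0304 CPM, so it was not detectable at this depth in any library and no fold is given. Intervals and floors cover counting error only. Its exons share 547 bases with those of SERPINB10, which had 0 counts in all libraries.

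Set against SERPINE2 per length, PLAU was 5.81 in the Parental cells (5.64 to 5.98), 3.07 in clone 1 (2.97 to 3.17), 3.98 in the labelled clone 5 (3.89 to 4.08) and 9.65 in clone 6 (9.35 to 9.96). Clones thus lay on both sides of the Parental value of this ratio. PLAT was 1.26 times SERPINE2 in the Parental cells and 2.62, 2.12 and 10.6 times in the clones in the same order. Every clone was above the Parental cells in the ratio of PLAT to SERPINE2, and clone 6, with the most PLAT and the least SERPINE2, was the highest. The sum of PLAU and PLAT was 60.6 RPKM in the Parental cells and 38.3, 79.5 and 118 RPKM in the clones, with clone 1 below the Parental cells and the others above them. These are ratios and sums of mRNA levels, and protease activity was not measured here.

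**Figure D3:**
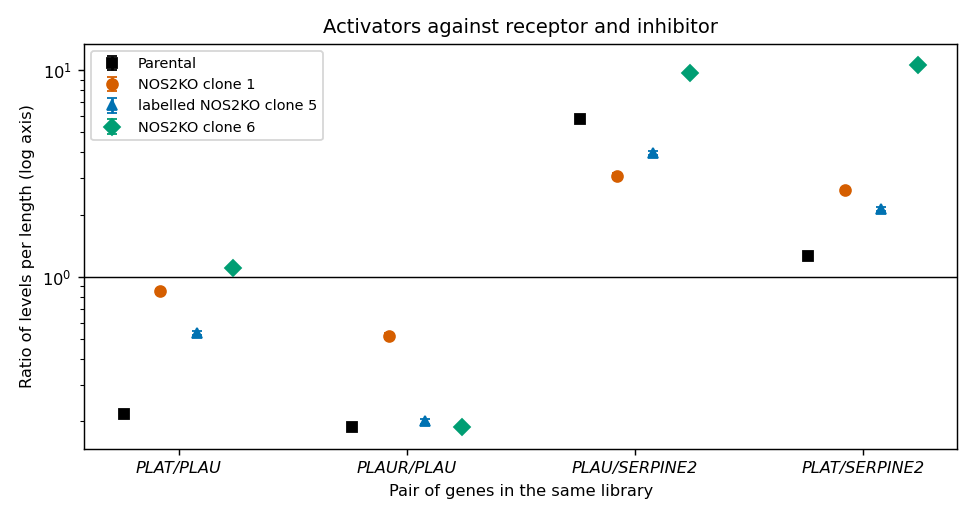
Ratio of the levels per length of 2 genes in the same library, on a log axis with a line at 1, with exact 95% intervals as bars. PLAT against PLAU and PLAT against SERPINE2 are higher in every clone than in the Parental cells, while PLAU against SERPINE2 is lower in clone 1 and in the labelled clone 5 and higher in clone 6.

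SERPINB5 (ENSG00000206075, chr18:63476761-63505085, + strand) encodes maspin, a serpin of epithelial cells that does not inhibit proteases in the classical way and is known as a tumour suppressor of the breast. It had 731 counts in the Parental cells, 1203 in clone 1, 1211 in the labelled clone 5 and 418 in clone 6 (8.09, 10.5, 11.4 and 4.24 CPM). Clone 6 was below the Parental cells and the others above them, with log2 ratios of 0.38 (0.24 to 0.51), 0.49 (0.36 to 0.62) and -0.93 (-1.11 to -0.76). The log2 fold change was 0.10 ± 0.67 (SE, adjusted p = 0.963 by edgeR), and clone 6 differed from the labelled clone 5 by 2.68-fold.

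SERPINB7 (ENSG00000166396, chr18:63752935-63805376, + strand), a serpin known from skin keratinocytes, was at the edge of detection, with 10 counts in the Parental cells, 8 in clone 1 and 0 in the others. The log2 ratio of clone 1 was -0.67 (exact 95% interval -2.21 to 0.83). Against the floor of 3 counts per library, SERPINB7 was at least 3.93-fold lower in the labelled clone 5 and at least 3.64-fold lower in clone 6, bounds that take the 10 Parental counts as exact. With their counting error, the upper 95% limits of the log2 ratio were -1.40 and -1.29. It passed the expression filter through the Parental library alone, so being lower in the clones is no support for a difference. The adjusted p was 0.710 by edgeR's quasi-likelihood test.

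SERPINB8 (ENSG00000166401, chr18:63969925-64019779, + strand) encodes an intracellular serpin that can inhibit furin. It had 2515 counts in the Parental cells, 2055 in clone 1, 959 in the labelled clone 5 and 542 in clone 6, which is 27.8, 17.9, 9.0 and 5.50 CPM. All clones were below the Parental cells, and clone 6 was the lowest. The differences were 1.55-fold in clone 1 (log2 ratio -0.63, -0.72 to -0.55), 3.09-fold in the labelled clone 5 (-1.63, -1.74 to -1.52) and 5.06-fold in clone 6 (-2.34, -2.48 to -2.20). With 10.8 ± 6.40 CPM in the clones (SD, n = 3) and a spread among them of 3.26-fold, the log2 fold change was -1.36 ± 0.71 (SE, adjusted p = 0.504 by edgeR). Without clone 1 it was -1.94 and passed the unadjusted criterion (adjusted p = 0.140 by edgeR), and without clone 6 it was -1.04. The fit without clone 1 called 1608 genes lower by the criterion, among them SERPINB8. FURIN, the protease it can inhibit, was at 212 CPM in the Parental cells and at 104, 218 and 208 CPM in the clones in the same order. HMSD, on the same strand, and the antisense gene AC009802.1 share 370 and 257 exon bases with SERPINB8 and had at most 9 and 21 counts.

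PLAT and SERPINB8 had the same order of libraries in opposite directions: the Parental cells at one end, then clone 1, the labelled clone 5 and clone 6. This is a description of 4 libraries with no test.

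SERPINA1 (ENSG00000197249, chr14:94376747-94390693, - strand) encodes alpha-1-antitrypsin, a secreted inhibitor of neutrophil elastase that is made mainly in the liver. It had 1109 counts in the Parental cells, 9406 in clone 1, 847 in the labelled clone 5 and 1615 in clone 6 (12.3, 82.0, 7.95 and 16.4 CPM). Clone 1 was far above the rest, and the Parental value lay between those of the other clones. Clone 1 was 6.68-fold above the Parental cells (log2 ratio 2.74, 2.65 to 2.83) and 10.3-fold above the labelled clone 5, whose ratio to the Parental cells was -0.63 (-0.76 to -0.50), with 0.42 (0.31 to 0.53) in clone 6. The clones averaged 35.4 ± 40.6 CPM (SD, n = 3), and the log2 fold change of 1.53 ± 1.32 (SE, adjusted p = 0.710 by edgeR) rested on clone 1, without which it was -0.01. ALB, the hepatocyte marker, had 3 counts or fewer in every library. ELANE, the gene of neutrophil elastase, was at 0.564 CPM in the Parental cells and at 0.523, 0.788 and 2.31 CPM in the clones.

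SERPINB5, SERPINB7, SERPINB2 and SERPINB8 lie on chromosome 18 within a cluster of clade B serpins, with the starts of SERPINB5 and SERPINB8 493 kb apart. Within 500 kb of these 4 genes there are 27 genes, of which 10 are SERPINB genes. Of the other genes, 5 reached 1 CPM in a library. BCL2, an inhibitor of apoptosis, was at 39.1 CPM in the Parental cells and at 16.3, 15.9 and 11.0 CPM in the clones (log2 fold change -1.44 ± 0.37 (SE), adjusted p = 0.332 by edgeR). KDSR, AC036176.1 and VPS4B were also lower in every clone (log2 fold changes -0.58, -1.02 and -0.23), and PHLPP1 overlapped. In all, 4 of the 5 were lower in all 3 clones, beside 30.5% of all tested genes. That share has no 1 CPM minimum: 15280 of the 22511 tested genes reached 1 CPM in a library. The 5 genes are also neighbours and not separate draws. In clone 1, SERPINB4, SERPINB3 and SERPINB5 lay above the Parental cells and SERPINB8 below them, whereas SERPINB7 had 8 counts against 10. SERPINB4 had 131 counts in the Parental cells, 825 in clone 1 and 6 in each of the others, and SERPINB3 had 88, 490, 7 and 3. SERPINB3 and SERPINB4 are near-identical copies, so how reads were split between them is uncertain. In the labelled clone 5 and in clone 6, SERPINB3, SERPINB4, SERPINB7 and SERPINB8 were all below the Parental cells, while SERPINB5 was above them in the first and below them in the second. SERPINB13 had 2 counts in the Parental cells, 9 in clone 1, 24 in the labelled clone 5 and 0 in clone 6. SERPINB12 had 7 counts in the labelled clone 5 and 0 in the others.

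**Figure D4:**
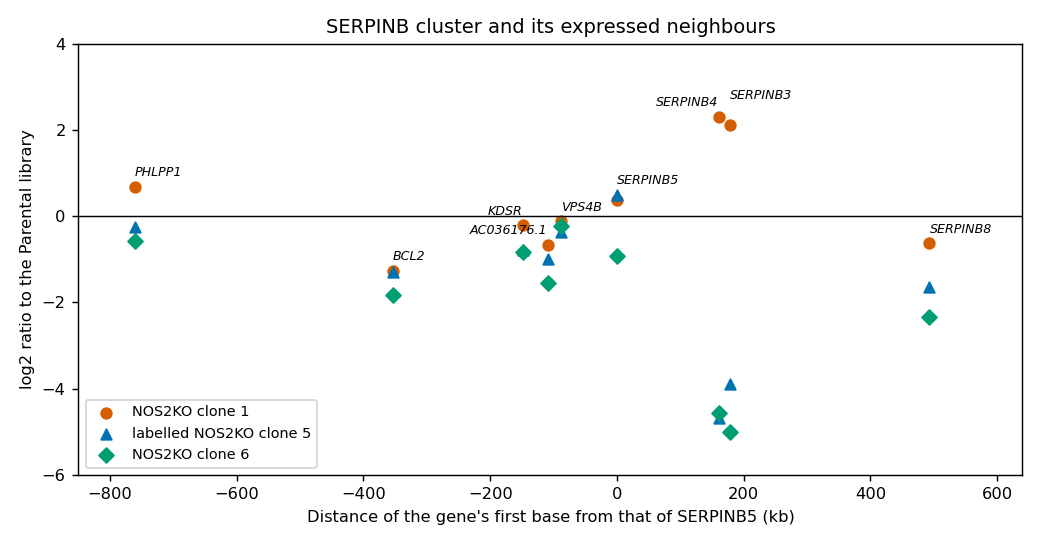
Log2 ratio of each clone to the Parental cells for the genes around the SERPINB cluster that reached 1 CPM in any library, against the distance of the gene's first base from that of SERPINB5 in kb. SERPINB8 and BCL2 lie below 0 in every clone, whereas SERPINB3 and SERPINB4 lie above 0 in clone 1 and below 0 in the others.

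The other genes of plasmin generation were taken as a list of 14 genes, of which 12 passed the expression filter. This list and those below were written with earlier results of these data known. Their counts beside the shares of all tested genes are therefore a description only. By the unadjusted criterion 2 were higher (S100A10 and ANXA2, beside 4.24% of all tested genes), none was lower (beside 5.34%) and 10 did not pass, with a median log2 fold change of 0.52 beside 0.10 for all tested genes. None passed an adjusted p under 0.05 by edgeR's quasi-likelihood test. ANXA2 and S100A10 encode the subunits of the annexin A2 complex, a cell-surface receptor that binds tPA and plasminogen. S100A10 was at 35.6 CPM in the Parental cells and at 192, 161 and 130 CPM in the clones (log2 fold change 2.18 ± 0.34 (SE), adjusted p = 0.281 by edgeR and 0.000109 by DESeq2). ANXA2 was at 522 CPM and at 1367, 1333 and 1001 CPM (1.24 ± 0.36, adjusted p = 0.372 by edgeR and 0.0474 by DESeq2). In both, the clones lay above the Parental cells, and ANXA2 no longer passed the unadjusted criterion without the labelled clone 5 or without clone 6. PLG, the gene of plasminogen itself, had 0 counts in all libraries. A2M, a broad protease trap, had 15, 40, 4384 and 37 counts, with the labelled clone 5 far above the rest.

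Coagulation genes, of which 13 of 16 passed the filter, had 5 higher and 1 lower by the unadjusted criterion (beside 4.24% and 5.34% of all tested genes), 7 that did not pass, and a median log2 fold change of 1.33. The median log2 ratio was 0.01 in clone 1, 1.59 in the labelled clone 5 and 1.48 in clone 6. The higher genes were PROS1 (the cofactor protein S, 2.45 ± 0.53 (SE)), F2RL2 (a thrombin receptor, 2.31 ± 0.54), F3 (tissue factor, which starts coagulation, 1.44 ± 0.30), PROCR (the protein C receptor, 1.33 ± 0.28) and F2R (the main thrombin receptor, 1.31 ± 0.40, named after its value was seen). The lower gene was F2RL3, another thrombin receptor, at -1.45 ± 0.53, which did not pass with upper quartile scaling or without clone 6. F3 was at 19.7 CPM in the Parental cells and at 57.0, 59.3 and 44.4 CPM in the clones, without overlap. Adjusted p-values by edgeR's quasi-likelihood test were 0.332 to 0.397 for these 6 genes, and DESeq2 gave 0.00349 for PROS1, 0.00807 for F2RL2, 0.0107 for PROCR, 0.0131 for F3 and 0.174 for F2RL3.

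Among 16 proteases that serpins can act on, 12 passed the filter, 2 were higher by the unadjusted criterion (beside 4.24% of all tested genes), none was lower (beside 5.34%) and 10 did not pass. The median log2 fold change of 1.44 became 1.24 with the 2 genes at 0 counts in the Parental cells set at their bound against 3 counts, which left the medians of the other lists as they were. It was 0.75 with a minimum of 1 CPM in 2 libraries and 0.78 without the labelled clone 5, and the median log2 ratio was -0.34 in clone 1, 1.33 in the labelled clone 5 and 0.82 in clone 6. None passed an adjusted p under 0.05 by edgeR's quasi-likelihood test. HTRA1, a secreted serine protease, was at 77.2 CPM in the Parental cells and at 219, 168 and 158 CPM in the clones. Its log2 fold change was 1.23 ± 0.33 (SE), with an adjusted p of 0.353 by edgeR and 0.0569 by DESeq2. The other was ST14, the gene of matriptase, named after its value was seen, with 0 counts in the Parental cells and 6, 16 and 5 in the clones. It passed the expression filter through the clones alone, so its count among the higher genes is no support.

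The LY6/uPAR family shares the protein fold of uPAR. Of its 12 genes 10 passed the filter, 4 were higher by the unadjusted criterion (beside 4.24% of all tested genes), none was lower (beside 5.34%) and 6 did not pass, with a median log2 fold change of 0.88. LYPD1 was at 2.47 ± 0.77 (SE), CD59, which protects cells from complement, at 1.51 ± 0.34, and LY6E at 1.03 ± 0.35. Their adjusted p-values were 0.332 to 0.419 by edgeR. DESeq2 gave 0.0917 for LYPD1, 0.0091 for CD59 and 0.143 for LY6E. LY6E did not pass the unadjusted criterion with library size scaling, without the labelled clone 5 or without clone 6, nor LYPD1 with the bias-adjusted method or without clone 6. The fourth was LYPD5, named after its value was seen, with 6 counts in the Parental cells and 35 to 51 in the clones, which passed the expression filter through the clones alone. PLAUR itself, at 0.18, was below the median of its relatives.

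Of 28 further serpins 17 passed the filter, 2 were higher by the unadjusted criterion (beside 4.24% of all tested genes), none was lower (beside 5.34%) and 15 did not pass, with a median log2 fold change of 0.90. Without clone 1 the median was 0.43, and the median log2 ratio was 0.33 in clone 1, 0.44 in the labelled clone 5 and 0.29 in clone 6. SERPINI1, the gene of neuroserpin, an inhibitor of tPA, was at 2.35 CPM in the Parental cells and at 10.0, 37.5 and 19.9 CPM in the clones (3.26 ± 0.77 (SE), adjusted p = 0.354 by edgeR and 0.00285 by DESeq2). The other higher gene was SERPINC1, antithrombin, named after its value was seen, with 0 counts in the Parental cells and 16, 6 and 6 in the clones, and it too passed the filter through the clones alone. The collagen chaperone SERPINH1 was at 1109 CPM in the Parental cells and at 1186 to 1507 CPM in the clones. SERPINF2 is counted both here and in the list of plasmin generation. Over the lists, medians are given beside the 0.10 of all tested genes as a description only, and the 3 clones share the Parental cells.

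**Figure D5:**
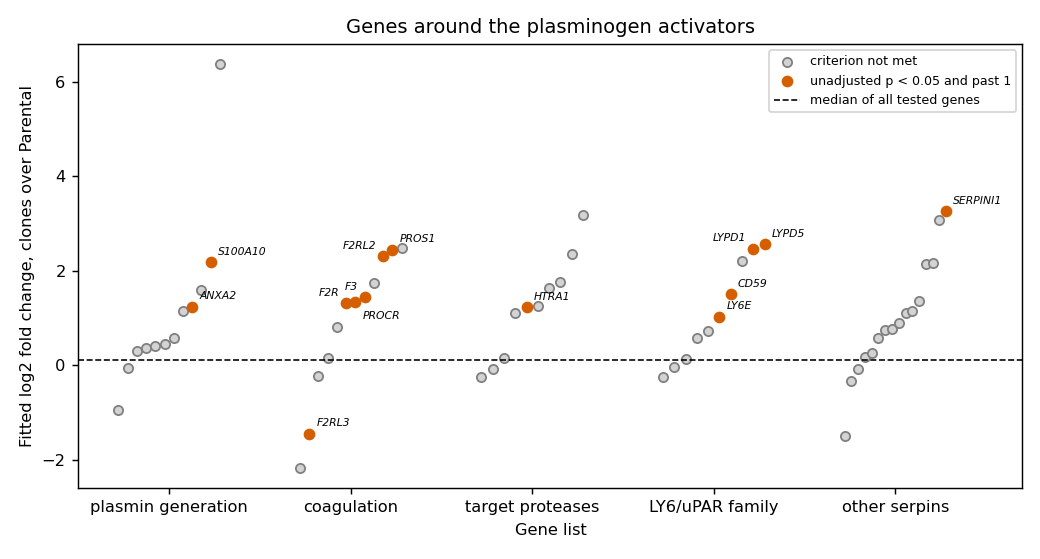
Fitted log2 fold change of the clones over Parental for each tested gene of 5 lists, leaving out genes with 0 counts in the Parental cells, with genes past the unadjusted criterion filled and named and the median of all tested genes as a dashed line. F2RL3 is the named gene below 0, and S100A10, PROS1, F2RL2, LYPD1, LYPD5 and SERPINI1 are the named genes above 2.

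The genes whose 3 log2 ratios lay nearest to those of each member, by Euclidean distance over the 10709 genes that reached 10 CPM in any library, are given as a description with 3 ratios per gene that share the Parental cells. For PLAT they were PCDHGB1 (distance 0.26) and ADA (0.41), and for SERPINB8 they were SOWAHC and SIAH2 (0.30 each). For SERPINA1 they were ADD2 (0.21) and NEK2 (0.54), and for PLAU ZSCAN31 (0.10) and IFT140 (0.19). SERPINE2 was nearest to TMEM245 (0.19) and IGFBP4 (0.21), and SERPINB5 to RAPH1 (0.29) and TXLNA (0.33). PLAUR was nearest to BPHL and B3GNT2 (0.05 each), and 466 genes lay within 0.3 of it, against 19 or fewer for each of the others. The nearly level pattern of PLAUR was thus shared with many genes, and the patterns of PLAT, SERPINB5 and SERPINA1 each with 1 within that distance.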

How the data were processed

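The authors deposited unnormalized whole-number counts of each gene for 1 Parental and 3 NOS2KO libraries of poly(A)-enriched mRNA (NEBNext Ultra II). The submitters' processing notes name bcl2fastq 2.17, Trimmomatic 0.36, STAR 2.5.2b, featureCounts, Subread 1.5.2, DESeq2 and GRCh38. Strand setting, annotation release, and whether reads or pairs were counted are not given in the sources used here. Depth was 90467395 to 122171287 counts per library. Of 57500 identifiers, 56898 had a GENCODE 29 symbol.

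The fit used edgeR 4.0.16 under R 4.3.3 (filterByExpr by group, TMM, glmQLFit and glmQLFTest with that version's defaults) and Benjamini-Hochberg adjustment over 22511 genes, with 2 residual degrees of freedom. The spread of each gene was moderated toward the trend over all tested genes, with 2.75 prior degrees of freedom. The SE is from the same fit. Log2 ratios of 1 clone carry exact Clopper-Pearson 95% intervals, and 0 counts are given as a bound against 3. Called means an adjusted p under 0.05, or an unadjusted p under 0.05 with a log2 fold change past 1. Named are all 9 members, NOS2, overlapping genes, up to 5 genes per list with the largest change past the unadjusted criterion and at least 1 CPM, chromosome 18 neighbours, and the 2 nearest genes per member. FURIN, ELANE, PLG, A2M, SERPINH1, SERPINF2, SERPINB12 and SERPINB13 were named after their values were seen. Some items of the lists are not reported here, and the lists are counted without them. Members and lists were chosen with earlier results of these data known. Alternatives were other scalings, filters, DESeq2 1.42.0, other quasi-likelihood settings, other thresholds and leaving out each clone. The scripts were tested on simulated data. Ratios, intervals and plots were made in Python 3.11.15 (scipy 1.17.1, numpy 2.4.6, matplotlib 3.10.9, pandas 2.3.3).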

Additional observations from a re-analysis of the deposited data

How the results depend on the processing

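Under every alternative run, none of the 9 genes that was tested passed an adjusted p under 0.05 by edgeR or DESeq2. SERPINB2 did not pass the main filter. SERPINB7 was not tested with the 1 CPM minimum or without clone 1, and DESeq2 gave it no adjusted p. By the unadjusted criterion the count of 0 became 1 with DESeq2, which called 1591 higher and 1144 lower over all genes. It ranged from 0 to 2 with 1 clone left out, the 2 being PLAT and SERPINB8 without clone 1. That fit called 1791 higher and 1608 lower over all genes, the most with any 1 clone left out. Over all genes, the 1 call at an adjusted p under 0.05 became 6 without a filter, 5 with the bias-adjusted quasi-likelihood method and 1095 with DESeq2, and was 0 to 0 with 1 clone left out. The 955 genes higher by the unadjusted criterion became 1591 with DESeq2 and 641 to 1791 with 1 clone left out, and the 1202 lower became 777 with a minimum of 1 CPM in 2 libraries, which tests fewer genes, and 825 to 1608 with 1 clone left out. Over the lists, 0 genes at an adjusted p under 0.05 became 9 with DESeq2, the 15 higher became 9 to 19 with 1 clone left out, and the 1 lower (F2RL3) became 0 with upper quartile scaling, 2 with no filter or DESeq2, and 0 to 4 with 1 clone left out. At a 1.5-fold threshold, clone 1 had 2 members higher (PLAT and SERPINA1) and 3 lower (PLAU, SERPINB7 and SERPINB8). The library labelled clone 5 had 2 higher (PLAT and SERPINE2). The share of all tested genes past this threshold was not computed, so these counts cannot be set against a background. With 1 clone left out, PLAU ranged from -0.45 to 0.12 and SERPINA1 from -0.01 to 2.02, both turning without clone 1. SERPINE2, at -0.01, turned to 0.01 with RLE scaling, library size scaling, no filter or DESeq2, to 0.10 with upper quartile scaling, to 0.04 with the 1 CPM minimum, and to 0.14 and 0.21 without clones 1 and 6 (range with 1 clone left out -0.43 to 0.21). SERPINB5 ranged from -0.12 to 0.44, turning to -0.05 without clone 1 and to -0.12 without the labelled clone 5. The cause of these changes was not tested where none is named. The median of all genes, 0.10, moved to 0.20 with upper quartile scaling and to 0.31 without a filter. The other 98 counts stayed within 1.5 times of the reported value. No paired analysis was possible because the Parental group has 1 library, so the groups share fewer than 2 replicate numbers. Depth did not allow a value for SERPINB2, and limits SERPINB7 and NOS2.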
